A study of Homo sapiens with 24 samples.

Results

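Copper chloride given for 4 h was compared with no treatment for 4 h in SH-SY5Y cells, a single established human neuroblastoma line. The comparison uses 6 of the 24 RNA sequencing libraries of the study, picked by their treatment labels: 3 from copper-treated cells and 3 from untreated cells. The remaining libraries come from cells harvested at 24 h, which were untreated or had received TEPA or dextran-catechin (both copper chelators), interferon gamma, or interferon gamma with a chelator. The question put to the 4 h libraries is which transcripts respond to added copper. Doses are not in the labels used here, and the labels do not say whether libraries 1, 2 and 3 of a group came from separate cultures. The p-values below therefore measure the spread between libraries of a group, pooled over all 24 libraries unless stated, and that spread may be technical.

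Copper is taken up by the transporter SLC31A1 and handed on by chaperone proteins. Excess copper, like zinc and cadmium, acts on cells through several routes. The transcription factor MTF1 senses displaced zinc and switches on metallothioneins, small cysteine-rich proteins that bind metal ions, and the zinc exporter SLC30A1. The transcription factor NRF2 answers oxidants and electrophiles and drives genes such as HMOX1, the enzyme that breaks down heme. In the integrated stress response, kinases that phosphorylate the translation initiation factor eIF2 slow protein synthesis while raising translation of ATF4, which then turns on genes of amino acid supply and tRNA charging and stress effectors such as CHAC1, an enzyme that degrades glutathione.

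Promoter sequences of 4 strongly changed genes are shown because they carry the letters these sensors are known to read. Each is the stretch of 250 bases before the RefSeq transcription start on GRCh38.p14, 5′ to 3′ on the strand of the gene. Capitals in the first 3 mark matches on either strand to the core of the metal response element bound by MTF1, TGCACNC or TGCGCNC. They lie at chr16:56682220-56682469 on the plus strand for MT1X, with 4 matches, at chr16:56608334-56608583 on the plus strand for MT2A, with 7 matches, and at chr1:211579162-211579411 on the minus strand for SLC30A1, with 1 match. Capitals in the fourth, at chr15:40953221-40953470 on the plus strand for CHAC1, mark 1 match to the C/EBP-ATF response element bound by ATF4 with its C/EBP partners, searched as TGATGNAA on both strands.
MT1X: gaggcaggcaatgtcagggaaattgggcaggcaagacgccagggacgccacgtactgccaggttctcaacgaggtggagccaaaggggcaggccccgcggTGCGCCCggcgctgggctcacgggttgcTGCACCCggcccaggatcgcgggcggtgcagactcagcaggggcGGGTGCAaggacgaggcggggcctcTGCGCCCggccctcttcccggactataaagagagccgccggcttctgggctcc
MT2A: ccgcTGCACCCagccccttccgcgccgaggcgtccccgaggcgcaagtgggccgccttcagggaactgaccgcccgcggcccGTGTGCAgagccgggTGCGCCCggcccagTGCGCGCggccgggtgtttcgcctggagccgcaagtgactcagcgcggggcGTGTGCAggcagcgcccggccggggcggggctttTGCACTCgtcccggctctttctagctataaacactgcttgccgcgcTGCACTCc
SLC30A1: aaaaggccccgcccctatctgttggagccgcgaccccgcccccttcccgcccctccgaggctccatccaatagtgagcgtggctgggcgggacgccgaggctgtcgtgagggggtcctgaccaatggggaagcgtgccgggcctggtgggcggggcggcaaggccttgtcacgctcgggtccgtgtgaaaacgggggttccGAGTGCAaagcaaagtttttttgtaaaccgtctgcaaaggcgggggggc
CHAC1: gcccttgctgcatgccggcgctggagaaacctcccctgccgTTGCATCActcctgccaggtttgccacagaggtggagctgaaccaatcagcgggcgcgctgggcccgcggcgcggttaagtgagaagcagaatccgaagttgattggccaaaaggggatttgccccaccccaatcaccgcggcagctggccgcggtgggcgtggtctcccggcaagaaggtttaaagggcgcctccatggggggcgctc
Of all 27305 RefSeq promoters searched over the same length, 24.7% held at least 1 of the 2 metal response forms and 3.19% held TGATGNAA. Among the 11515 tested genes with such a promoter the shares were 33.0% and 1.43%, so a single match to the metal core is common. A match is a description of the letters and not a site. RefSeq promoters were found for 78 of the 111 genes that copper raised at least 2-fold, under the 80% needed to compare shares over that set, and no such comparison is made.

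Library totals were 29621388, 27198884 and 28730987 counts in copper libraries 1, 2 and 3, and 26850107, 29170242 and 30373569 counts in untreated libraries 1, 2 and 3. Levels are given as CPM, counts scaled to a common library total after TMM normalization, and differences as log2 fold changes of copper over untreated. Of 15 neuroblast identity markers 14 passed the filter on low counts, 6 of them with a positive fold change, 0 called higher and 1 called lower, with a median of -0.02. Their summed level was 2969 to 3112 CPM with copper and 3047 to 3252 CPM without. STMN2, a growth cone protein and the called one, had 634, 528 and 485 CPM in copper libraries and 968, 742 and 697 CPM in untreated libraries, whereas TH, the rate-limiting enzyme of catecholamine synthesis, had 0 counts in the copper group and 1 in the untreated group. Of 10 leukocyte and epithelium markers 4 were at 0 in all 6 libraries, and their summed level was 0.832 to 1.13 CPM with copper and 0.729 to 1.27 CPM without. Schwann cell and mesenchymal markers summed to 1450 to 1514 CPM with copper and 1667 to 1776 CPM without, most of it VIM, and fibroblast and endothelium markers to 755 to 821 CPM with copper and 801 to 859 CPM without. Transcripts that mark RNA quality or nuclear RNA summed to 268 to 291 CPM with copper and 188 to 254 CPM without, and their part in the results was not tested.

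Copper changed 857 of 14654 genes tested, which is 5.85%, at a Benjamini-Hochberg adjusted p below 0.05 in edgeR's quasi-likelihood test fitted on all 24 libraries. Such genes are said here to have been called, to have risen or to have fallen. Of them 388 rose (2.65%) and 469 fell (3.2%), and 127 changed at least 2-fold (0.867%), 111 upward and 16 downward. The rises were larger than the falls, with a median log2 fold change of 0.67 for genes that rose and -0.46 for genes that fell, against -0.02 over all genes tested. Genes that rose took up 4.00% to 4.18% of all counts in copper libraries and 2.37% to 2.42% in untreated libraries, and genes that fell took up 4.07% to 4.20% with copper and 5.45% to 5.57% without. The libraries of the groups did not overlap for 1863 genes (12.7%), 862 of them higher with copper (5.88%) and 1001 lower (6.83%). With 3 against 3 libraries part of the genes separate without any effect, so a lack of overlap alone is weak evidence for a gene.

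The number of calls depended on how library differences were handled. Libraries of the same number deviated together, and with the replicate number as a block 2291 genes were called (15.6%), 916 higher and 1375 lower, including all 857. With a trend against gene GC content removed from each library 2988 were called (20.4%), and with the 6 libraries fitted alone and no block 55 were, 54 of them higher. HSPA8 was the fall called there, so every other fall named below was not called in the 6 libraries alone. Leaving out copper library 2 gave 543 calls, 250 of them lower, and leaving out copper library 3 gave 259 lower. Leaving out untreated library 1 gave 583 higher and leaving out untreated library 2 gave 250 higher.

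**Figure D1:**
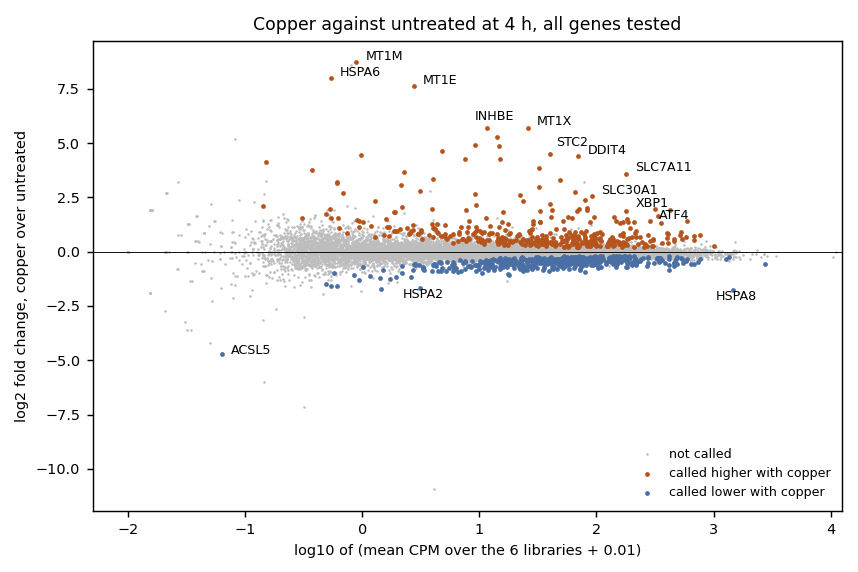
Log2 fold change of copper over untreated at 4 h (y axis) against the mean level over the 6 libraries (x axis, log10 of CPM plus 0.01) for the 14654 genes tested, 1 point each; orange points are the 388 genes called higher, blue points the 469 called lower and grey points the rest. The large changes lie above 0, and the fitted values of MT1M, HSPA6 and ACSL5, each at 0 counts in 1 of the groups, depend on the prior count and are no measure of size.

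Metallothioneins were among the largest rises. MT1X (chr16:56682424-56684196) had 20.6, 50.4 and 81.2 CPM in copper libraries 1, 2 and 3, against 0.246, 1.06 and 1.53 CPM in untreated libraries 1, 2 and 3. Its log2 fold change was 5.71 (SE 0.63, adjusted p = 6.08e-06 in edgeR). Every copper library lay above every untreated one, and within each group library 1 was lowest and library 3 highest. MT2A (chr16:56608199-56609497) had 14.1, 24.2 and 44.5 CPM with copper and 0.164, 0.596 and 1.31 CPM without, a log2 fold change of 5.28 with an SE of 0.53 (adjusted p = 1.61e-06 in edgeR), or 6.12 without untreated library 3. MT1F rose by 4.63 (SE 0.37). MT1E had 482 counts in the copper group and 2 in the untreated group, a ratio of 236 with a 95% counting interval of 65.1 to 1957. MT1M had 155 counts with copper and 0 without, which is at least 50.7-fold higher when the untreated group is set to a floor of 3 counts in all.

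Of the 12 metallothionein genes 5 passed the filter on low counts, and they passed it through the copper libraries, so that they were called follows in part from how they were selected. MT1A had 2 counts with copper and 0 without, and MT1B, MT1G, MT1H, MT1L, MT3 and MT4 were at 0 in all 6 libraries. The level of the whole family was 45.9, 89.8 and 149 CPM in copper libraries 1, 2 and 3, against 0.698, 1.95 and 3.42 CPM in untreated libraries 1, 2 and 3. In both groups library 1 was lowest and library 3 highest. Metallothionein genes are near-identical in sequence, so the split of reads between them is uncertain. In the 6 libraries fitted alone MT1X (adjusted p = 0.0778) and MT2A (adjusted p = 0.105) were not called in edgeR, whereas with the replicate block they had adjusted p = 2.97e-09 and 1.94e-09.

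SLC30A1 (chr1:211571568-211578742), which exports zinc across the plasma membrane, had 196, 141 and 135 CPM with copper and 33.0, 23.9 and 23.2 CPM without. It rose by 2.56 (SE 0.18, adjusted p = 1.28e-08 in edgeR), and here library 1 was highest in both groups. It was the only called member of 8 zinc exporters tested, whose median log2 fold change was -0.00479. Among 11 zinc importers SLC39A14, which also carries iron and manganese, rose by 0.66 (SE 0.06) to 290.3, 257 and 252 CPM with copper, against 179, 164 and 162 CPM without, and the median of the family was -0.15, with 2 importers called lower under the replicate block or without copper library 1 and 1 without untreated library 1 or 3. MTF1 itself had 0.09 (SE 0.09, adjusted p = 0.752).

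Copper's own transporters and chaperones moved little. Of 21 tested, 2 rose and none fell, with a median of -0.10. PRNP, the prion protein, which binds copper ions at the cell surface, had 14.5, 10.5 and 10.2 CPM with copper and 5.58, 3.97 and 3.87 CPM without (log2 fold change 1.39, SE 0.19). COX19, a copper-binding factor of cytochrome c oxidase assembly, rose by 0.66 (SE 0.12). The importer SLC31A1 had 111, 94.1 and 93.4 CPM with copper and 132, 112 and 102 CPM without, a log2 fold change of -0.21 (95% interval -0.41 to -0.02, adjusted p = 0.252 in edgeR), and was called with the replicate block (adjusted p = 0.0262). Of 10 copper-dependent enzymes 0 were called in edgeR, limma-voom or DESeq2, and 0 had an unadjusted p under 0.05, with 1 called lower under the replicate block. Among 13 genes of lipoic acid attachment and pyruvate dehydrogenase, the pathway to which copper binds in cuproptosis, LIAS rose by 0.45 and lost its call without any 1 of 5 of the 6 libraries.

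**Figure D2:**
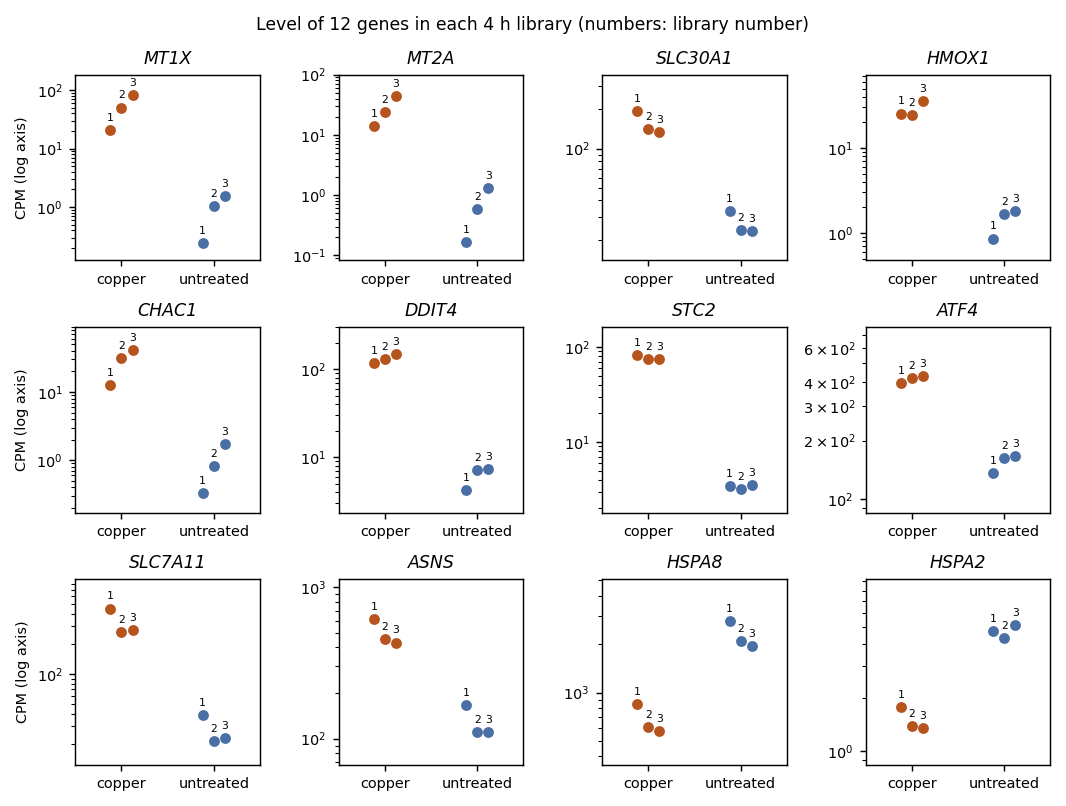
Level in CPM (y axis, log scale, each panel with its own range) of 12 genes in each 4 h library, copper at left in orange and untreated at right in blue, with 1 point per library and its number. The groups do not overlap in any panel. Libraries of the same number lie in the same order in both groups, as for MT1X and SLC7A11, except for HMOX1, STC2 and HSPA2.

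Part of the integrated stress response list rose. Of 24 kinases and regulators of this response 8 rose and none fell, with a median log2 fold change of 0.13, and without untreated library 1 there were 2 falls. The 8 are transcription factors, cofactors or feedback genes, and none is one of the eIF2 kinases. ATF4 (chr22:39519695-39522685) had 396, 417 and 427 CPM with copper and 136, 164 and 167 CPM without, a log2 fold change of 1.41 with an SE of 0.11 (adjusted p = 4.65e-08 in edgeR). ATF3, a repressive partner of ATF4, rose to 97.5, 82.8 and 85.5 CPM, against 10.3, 8.05 and 8.79 CPM in untreated cells (3.30, SE 0.23). DDIT3, the transcription factor CHOP, had 48.4, 57.0 and 65.5 CPM with copper and 6.61, 7.15 and 7.70 CPM without (2.99, SE 0.29). The spread within each group was small beside these differences. ATF5, a further transcription factor of the response, had -0.29 (SE 0.18, adjusted p = 0.492 in edgeR), the lowest value in the list.

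The feedback arm of the response rose as well. TRIB3, a pseudokinase that restrains ATF4, rose by 2.74 (SE 0.23) and the C/EBP factors CEBPB and CEBPG by 2.67 (SE 0.30) and 1.36 (SE 0.14). PPP1R15A, the phosphatase subunit GADD34 that reverses eIF2 phosphorylation, had 49.2, 62.2 and 73.4 CPM with copper and 10.7, 23.0 and 27.6 CPM without (1.59, SE 0.27). NUPR1, a stress-induced chromatin protein, had 60 counts with copper and 4 without (3.75, SE 0.61). It passed the filter on low counts through the copper libraries, so its place among the 8 follows in part from that filter, and at a minimum count of 50 there were 7. The kinase EIF2AK1, which responds to heme shortage and to mitochondrial stress, had -0.12 (SE 0.07, adjusted p = 0.43 in edgeR).

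Effectors downstream of ATF4 held rises of similar size. Of 33 listed genes 31 were tested, 30 had a positive fold change, 19 rose and none fell, and the median was 1.54. CHAC1 (chr15:40952962-40956519) had 12.5, 31.2 and 41.6 CPM in copper libraries 1, 2 and 3, against 0.328, 0.828 and 1.76 CPM in untreated libraries 1, 2 and 3, a log2 fold change of 4.84 with an SE of 0.72 (adjusted p = 0.000229 in edgeR). Library 1 was lowest in both groups, as for MT1X, and the log2 fold change of CHAC1 was 5.58 without untreated library 3. It was not called in the 6 libraries alone (adjusted p = 0.107). INHBE, an activin subunit, had 21.2, 21.5 and 25.4 CPM with copper and 0.493, 0.397 and 0.416 CPM without (5.70, SE 0.45). STC2, the secreted glycoprotein stanniocalcin 2, had 82.0, 75.03 and 75.5 CPM with copper and 3.41, 3.18 and 3.55 CPM without. Its log2 fold change of 4.52 with an SE of 0.18 (adjusted p = 9.88e-12 in edgeR) had the smallest SE of the 3, and it was called in the 6 libraries alone too (adjusted p = 0.000362). With the replicate block 25 of the 31 rose, and with the 6 libraries alone 10.

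DDIT4 and SESN2, which both restrain the growth kinase complex mTORC1, were the called members of 16 mTORC1 inhibitors and sensors. With the replicate block the list held 2 rises and 2 falls. DDIT4 (chr10:72273920-72276036) had 117.6, 132 and 149.9 CPM with copper and 4.23, 7.09 and 7.38 CPM without (4.41, SE 0.29), and SESN2 had 40.1, 62.8 and 79.5 CPM with copper and 2.30, 4.27 and 5.82 CPM without (3.87, SE 0.36). ULBP1, a surface ligand of the natural killer receptor NKG2D, had 22.4, 15.1 and 16.2 CPM with copper and 0.698, 0.596 and 0.479 CPM without (4.92, SE 0.32). Of 8 listed NKG2D ligands 2 were tested, and the second was not called. MICA, ULBP2, ULBP3, RAET1E, RAET1G and RAET1L did not pass the filter on low counts. Further rises in the list were VLDLR (2.59), a lipoprotein receptor, TSC22D3 (2.18), VEGFA (1.94), the main vascular growth factor, and GPT2 (1.92), the mitochondrial alanine aminotransferase. PCK2, the mitochondrial phosphoenolpyruvate carboxykinase, rose by 1.89 (SE 0.48) but was not called without copper library 2 or 3 or without untreated library 1 or 2 (adjusted p up to 0.104), and XPOT, a tRNA exporter, rose by 0.57 and was not called without copper library 1 or 2 or untreated library 2 or 3 (up to 0.167).

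Cytosolic enzymes of tRNA charging rose. Of 20 cytosolic aminoacyl-tRNA synthetases, which load amino acids onto tRNAs, 11 rose and none fell, with a median log2 fold change of 0.60. Of 17 mitochondrial synthetases none rose and MARS2 fell by 0.44 on the log2 scale, with a median of -0.10. CARS, which charges cysteine, had 126, 144 and 155 CPM with copper and 38.7, 47.9 and 55.5 CPM without (1.58, SE 0.16). GARS, for glycine and shared with mitochondria, had 1026, 824 and 762 CPM with copper and 386, 303 and 281 CPM without (1.43, SE 0.11), and AARS, SARS and YARS rose by 1.36, 1.35 and 1.10. WARS and TARS rose by 0.87 each and EPRS by 0.67, whereas KARS, for lysine and likewise shared with mitochondria, had 344, 319 and 308 CPM with copper and 344, 336 and 326 CPM without (-0.05, 95% interval -0.17 to 0.07). The count was 11 with the replicate block and 5 in the 6 libraries alone, and MARS2 was not called without copper library 3 or untreated library 3 (adjusted p up to 0.0834).

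**Figure D3:**
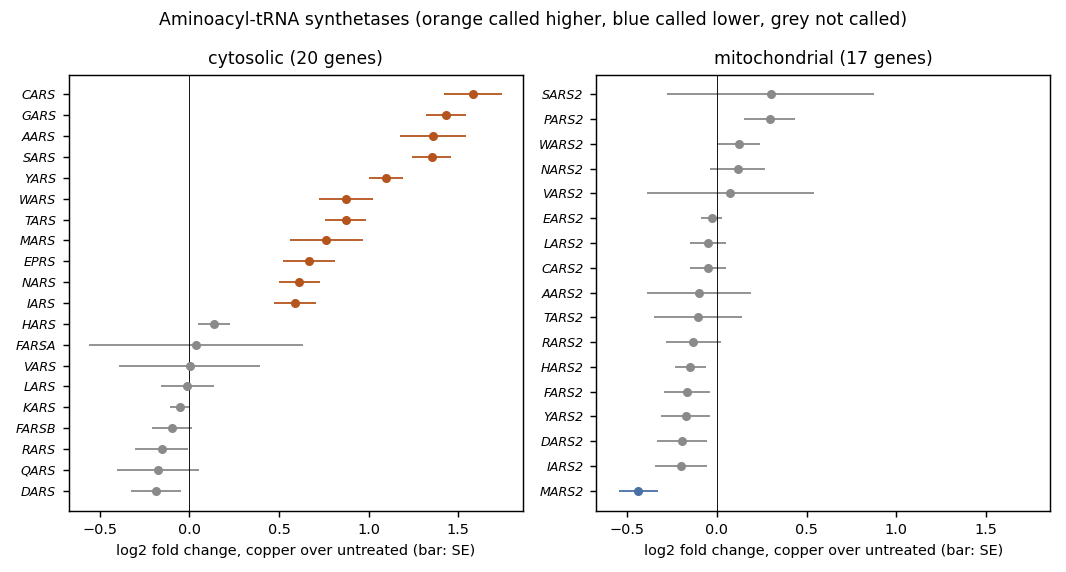
Log2 fold change of copper over untreated (x axis, bars are the SE of the edgeR fit) for the 20 cytosolic and the 17 mitochondrial aminoacyl-tRNA synthetases, 1 gene per line; orange marks genes called higher, blue genes called lower and grey genes not called. The 11 called cytosolic enzymes lie above 0.5 and the mitochondrial ones scatter around 0.

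Amino acid importers and the enzymes that make serine, glycine and asparagine rose with them. Of 18 tested amino acid transporters 8 rose and none fell (median 0.70), with 3 rises in the 6 libraries alone, and of 19 enzymes of serine, glycine, asparagine and one-carbon synthesis 9 rose and none fell (median 0.89), with 1 fall without untreated library 1. SLC7A11 (chr4:138164097-138242349), the cystine importer that feeds glutathione synthesis, had 454, 263 and 277 CPM with copper and 38.3, 21.5 and 22.7 CPM without (3.59, SE 0.23, adjusted p = 9.77e-09 in edgeR). Library 1 was highest in both groups. Its partner chain SLC3A2 rose by 1.99 (SE 0.22), the leucine carrier SLC7A5 by 2.37 (SE 0.43), the glycine carrier SLC6A9 by 2.80 (SE 0.42), SLC1A4 by 1.88 (SE 0.09) and SLC7A1 by 1.32 (SE 0.11).

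ASNS, asparagine synthetase, had 612, 452 and 431 CPM with copper and 166, 110.1 and 109.8 CPM without (1.96, SE 0.14, adjusted p = 2.83e-08 in edgeR). In serine synthesis PSAT1 rose by 1.64 (SE 0.12) and PSPH by 1.62 (SE 0.08). PHGDH, the first enzyme of that route, had 72.8, 137 and 166 CPM with copper and 19.0, 62.1 and 80.1 CPM without, and its log2 fold change of 1.22 (SE 0.46) was not called (adjusted p = 0.156 in edgeR), though it was with the replicate block (adjusted p = 0.00188). The copper libraries and the untreated libraries of PHGDH overlapped. The mitochondrial folate enzymes MTHFD2 and ALDH1L2 rose by 1.93 (SE 0.15) and 2.33 (SE 0.17), and SHMT2 by 1.35 (SE 0.30), which was not called without copper library 3 (adjusted p = 0.0555). Among the genes named in the text ACSL5, ALDH1L2, ATF5, CEBPB, DDC, DDIT3, DNAJB1, EIF2AK1, FEN1, FTH1, GAS5, IFIT1, KARS, LIAS, MTHFD2, NFE2L2, PCK2, POLH, SHMT2, SLC31A1, SLC6A9, SLC7A11, VIM, VLDLR, WARS and YARS overlap genes on the opposite strand, and since the strand setting of the counting is not stated, reads of such partners cannot be told apart.

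Part of the NRF2 targets rose. Of 26 tested 9 rose and none fell, with a median of 0.20. HMOX1 (chr22:35380361-35394214) had 25.4, 24.4 and 35.7 CPM with copper and 0.862, 1.69 and 1.82 CPM without, a log2 fold change of 4.28 with an SE of 0.40 (adjusted p = 6.62e-07 in edgeR), and its groups lay far apart. The glutathione synthesis subunit GCLM had 83.5, 50.4 and 47.2 CPM with copper and 40.2, 23.5 and 25.03 CPM without (1.03, SE 0.20). TXNRD1, thioredoxin reductase, rose by 0.81 (SE 0.11), SRXN1, sulfiredoxin, by 0.75 (SE 0.08) and NFE2L2, which encodes NRF2, by 0.61 (SE 0.14). NFE2L2 was not called without copper library 1 or untreated library 2 or 3 (adjusted p up to 0.0779). NQO1, a quinone reductase, had 0.52 (SE 0.15, adjusted p = 0.0448 in edgeR) and was not called without copper library 1 or 2 or untreated library 2 or 3 (up to 0.19). The count of 9 was 5 without untreated library 2 and 2 in the 6 libraries alone. It was 6 with no filter on low counts and 8 at a minimum count of 50.

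Iron genes held 1 rise and 1 fall. FTH1, the ferritin heavy chain that stores iron, rose by 0.27 (SE 0.07), a call lost without copper library 1 or untreated library 2 (adjusted p up to 0.0904). BEST1, on the opposite strand of FTH1, rose by 3.09 (SE 0.32). SLC40A1, the iron exporter ferroportin, had 7.52, 6.34 and 7.41 CPM with copper and 17.9, 12.3 and 11.4 CPM without, and fell by 0.97 on the log2 scale (SE 0.18). FTH1 and SLC40A1 were the called members of 16 tested, and without untreated library 1 or 3 there were 2 falls, with the replicate block 3.

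Among the chaperones most changes were falls. Of 17 HSP70 and HSP110 genes 1 rose and 2 fell (median -0.21), and of 21 J-domain, HSP90 and small heat shock genes 2 rose and 3 fell (median -0.12). HSPA8 (chr11:123057489-123063230), the constitutive HSC70 chaperone, had 853, 609.6 and 576 CPM with copper and 2779.5, 2084 and 1965 CPM without. It fell by 1.74 on the log2 scale (SE 0.17, adjusted p = 8.79e-07 in edgeR), and it was called in the 6 libraries alone (adjusted p = 0.0331). HSPA2 had 1.77, 1.39 and 1.35 CPM with copper and 4.76, 4.31 and 5.11 CPM without (-1.65, SE 0.22). The J-domain cochaperones DNAJA1 and DNAJB1 fell by 0.85 (SE 0.17) and 0.63 (SE 0.11). The 2 rises of the second list were 1 or 0 without any 1 library, and its falls were 5 with the replicate block.

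Inducible heat shock genes gave mixed values. HSPA6, a strictly inducible HSP70, had 93 counts with copper and 0 without, at least 30.4-fold higher against a floor of 3 counts. It is the rise among the HSP70 and HSP110 genes and passed the filter through the copper libraries alone, and at a minimum count of 50 that list had 0 rises. HSPA1A, the main inducible HSP70, had 4.31, 3.95 and 4.84 CPM with copper and 5.50, 6.09 and 9.43 CPM without, a log2 fold change of -0.68 with an SE of 0.22 (adjusted p = 0.0853 in edgeR) with reads shared with the near-identical HSPA1B. BAG3, a cochaperone driven by the heat shock factor HSF1, had 3.18, 4.51 and 5.799 CPM with copper and 2.91, 4.27 and 5.75 CPM without (0.06, 95% interval -0.53 to 0.65). With the replicate block the HSP70 and HSP110 list had 4 rises and 6 falls, and without untreated library 1 it had 3 rises.

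The list for the unfolded protein response of the endoplasmic reticulum covers part of it, as DDIT3 and PPP1R15A were counted with the integrated stress response. Of 22 tested 2 rose and 1 fell, with a median of -0.07, beside 2.65% rising and 3.2% falling over all genes tested. XBP1, a transcription factor of the unfolded protein response, had 322, 259 and 261 CPM with copper and 88.3, 71.6 and 68.0 CPM without (1.89, SE 0.10, adjusted p = 2.78e-10 in edgeR). HERPUD1, a component of protein degradation at this membrane that was counted with the ATF4 effectors, rose by 1.54 (SE 0.12). ERN1, another gene of this response counted with the ATF4 effectors, rose by 1.14 (SE 0.24, adjusted p = 0.00548 in edgeR). HSPA5, the chaperone BiP, had 453, 380.0 and 353 CPM with copper and 712, 529.7 and 498 CPM without (-0.55, SE 0.13, adjusted p = 0.015 in edgeR), and was not called without copper library 2 or 3 or untreated library 1 (up to 0.0905). Without untreated library 2 there were 2 falls, and with the replicate block 3 rises and 3 falls.

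Immediate early genes, which respond to signalling within minutes, were higher with copper. Of 26 tested 11 rose and 1 fell, with a median of 1.18. JUN had 40.2, 40.5 and 44.6 CPM with copper and 13.5, 15.7 and 17.5 CPM without (1.42, SE 0.23), and IER2 rose by 1.37 (SE 0.22). EGR1 had 146, 131 and 149 CPM with copper and 14.2, 15.2 and 16.5 CPM without, groups far apart, yet its log2 fold change of 3.21 had an SE of 1.26 and was not called (adjusted p = 0.177 in edgeR) in the fit that takes its spread from all 24 libraries. In the 6 libraries alone EGR1 was called (adjusted p = 0.000696). FOS had 7.56, 5.68 and 6.79 CPM with copper and 0.780, 1.16 and 0.927 CPM without (2.79, SE 0.88, adjusted p = 0.0723 in edgeR, and 0.0187 in the 6 libraries alone). The count of 11 was 6 without copper library 3, 5 without untreated library 2, 7 in the 6 libraries alone and 18 with the replicate block. It was 8 at a minimum count of 50 and 8 with no filter on low counts, so it depended in part on that filter.

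MYC was the immediate early gene that fell, with 13.7, 18.2 and 18.4 CPM with copper and 25.5, 32.8 and 34.1 CPM without (-0.88, SE 0.13). Of 19 feedback genes of the ERK kinase pathway 5 rose and none fell (median 0.32), led by the phosphatase DUSP5 (1.37, SE 0.22). There were 9 rises and 1 fall under the replicate block, and 1 rise in the 6 libraries alone. Of 26 p53 targets 1 rose and 1 fell (median -0.01). The rise was that of PMAIP1, the death-promoting BCL2 family protein NOXA, which had 145, 101 and 93.3 CPM with copper and 40.2, 23.7 and 22.2 CPM without (1.98, SE 0.21), and the fall that of POLH, a translesion polymerase (-0.42, SE 0.09). Without untreated library 3 there were 4 rises and 2 falls, without copper library 1 there were 2 falls, and with the replicate block 3 rises and 3 falls. CDKN1A, the p53 target p21, had 0.69 (SE 0.24, adjusted p = 0.105 in edgeR). GADD45A, given below, was not in the p53 list and rose by 1.28 (SE 0.20).

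Genes of sterol synthesis and of the cell cycle held falls. Of 24 cholesterol synthesis genes 4 fell and none rose, with a median of -0.14, and with the replicate block 9 fell and 1 rose. INSIG1, which holds back the sterol sensor, had 12.4, 12.1 and 10.1 CPM with copper and 30.5, 21.6 and 20.3 CPM without (-1.07, SE 0.21). MSMO1, a sterol oxidase, fell by 0.85 (SE 0.16). Of 33 mitosis genes 7 fell and none rose (median -0.27), and of 40 DNA replication genes 6 fell and none rose (median -0.11).

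FEN1, the flap endonuclease of lagging-strand synthesis, had 126, 140.3 and 146 CPM with copper and 187, 238 and 255 CPM without (-0.72, SE 0.13). UNG, uracil glycosylase, had 66.3, 68.7 and 69.1 CPM with copper and 100.4, 95.7 and 99.7 CPM without (-0.54, SE 0.05, adjusted p = 1.27e-06 in edgeR). DLGAP5, a spindle protein, fell by 0.71 (SE 0.16) and was not called without copper library 3 (adjusted p = 0.0598). Single libraries moved both counts: the 7 mitosis falls were 12 without copper library 1, 4 without copper library 2, 1 without copper library 3 and 4 without untreated library 1, and the 6 replication falls were 2 without copper library 2, copper library 3 or untreated library 1. With the replicate block 16 mitosis and 9 replication genes fell, and 2 replication genes rose.

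Lists of neuroblastoma identity held both falls and rises. Over all genes tested 2.65% were called higher and 3.2% lower. Of 26 adrenergic core transcription factors 4 fell and none rose, with a median of -0.11, namely MYC, SIX3, HAND1 and TFAP2B. With the replicate block 7 fell and 1 rose. SIX3 had 7.74, 9.01 and 8.30 CPM with copper and 14.2, 16.03 and 15.4 CPM without (-0.87, SE 0.12), and HAND1 had 15.01, 13.9 and 15.02 CPM with copper and 29.2, 23.2 and 22.3 CPM without (-0.76, SE 0.12). POU3F2, a neural transcription factor outside that list, fell by 0.89 (SE 0.12). Of 18 genes of catecholamine synthesis and granules 1 rose and 1 fell (median -0.05), with 2 rises and 1 fall under the replicate block. DDC, the enzyme that makes dopamine, fell by 0.52 (SE 0.08), and SCG2, a granule protein, rose by 0.67 (SE 0.17), a call lost without copper library 1 or untreated library 2 or 3 (adjusted p up to 0.0962). STMN2, the line marker given above, had a log2 fold change of -0.55 (SE 0.13) and was not called without copper library 2 or 3 or untreated library 1 (adjusted p up to 0.0974). Of 11 tested Schwann cell and mesenchymal markers 2 rose and 2 fell, with a median of 0.06. VIM, which makes up most of their summed level, fell by 0.26 (SE 0.05) and PMP22 by 0.71 (SE 0.07). FOSL1 rose by 1.44 (SE 0.41), a call lost without copper library 3 or any 1 untreated library (adjusted p up to 0.267), and SNAI2 by 0.51 (SE 0.14), lost without copper library 1 or untreated library 2 or 3 (up to 0.146).

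Housekeeping lists held no calls in the fit without the block. In 4 lists of proteasome subunits, nuclear-encoded respiratory chain subunits, cytosolic ribosomal proteins and ribosome biogenesis genes, 0 of 121 tested members were called in edgeR, 0 in limma-voom and 3 in DESeq2, and 3 higher and 9 lower had an unadjusted p under 0.05. With the replicate block 7 of 36 respiratory chain subunits were called lower, without copper library 1 these were 3 and without untreated library 3 they were 2. Of the proteasome subunits 2 were called lower without copper library 1, without untreated library 3 or with the block, which also called 1 higher. Of 24 ribosome biogenesis genes 3 were called higher and 5 lower with the block, and 6 and 5 with GC trends removed. Of 16 host transcripts of small nucleolar RNAs 5 rose and none fell (median 0.28), among them GAS5 (0.84, SE 0.18) and SNHG1 (0.80, SE 0.15), and 3 rose without copper library 2, copper library 3 or untreated library 2, and 0 in the 6 libraries alone. None of 14 immune checkpoint ligands was called in edgeR, limma-voom or DESeq2, with 1 at an unadjusted p under 0.05. That 1 was CD274, which encodes PD-L1 and had 5.09, 3.22 and 3.06 CPM with copper and 2.46, 2.25 and 1.79 CPM without (0.81, SE 0.31, adjusted p = 0.165 in edgeR). Of 35 interferon gamma response genes IFIT1 fell (-0.86, SE 0.14), with 2 falls without copper library 1 or 3 or untreated library 1 or 3. With the replicate block there were 3 falls and 1 rise, and 1 rise also without untreated library 1.

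**Figure D4:**
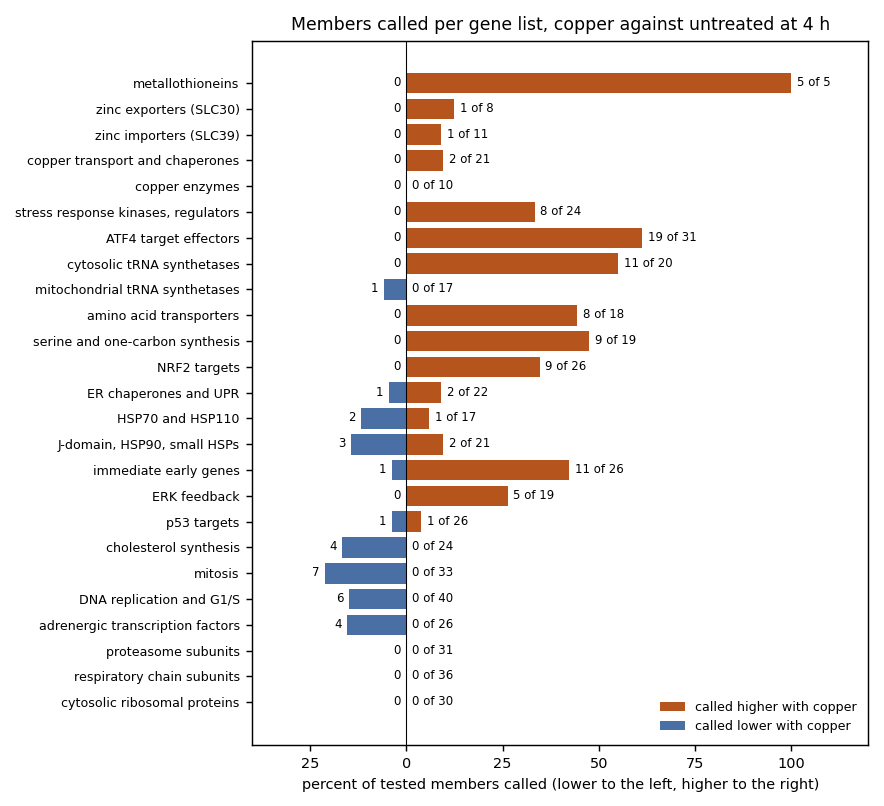
Percentage of tested members called higher (to the right, orange) and lower (to the left, blue) with copper in 25 gene lists, with the number called beside each bar. The ATF4 effectors, cytosolic synthetases, amino acid and serine lists extend only to the right (19 of 31, 11 of 20, 8 of 18 and 9 of 19), and cholesterol synthesis, mitosis, replication and adrenergic factors only to the left.

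The stress and amino acid lists did not cover the whole response. The integrated stress response, ATF4 effector, cytosolic synthetase, amino acid transporter and serine lists, 5 in all, held 111 tested genes, of which 54 rose and none fell. With the replicate block the stress response, transporter and serine lists held 1 fall each. With GC trends removed the stress response, synthetase and transporter lists held 2 falls each and the serine list 1. The 5 lists held 42 of the 111 genes that rose at least 2-fold, and 44 of those belonged to none of the 52 lists. Among the rises outside the lists PTGFR, a prostaglandin receptor, had 10.2, 6.76 and 5.07 CPM with copper and 0.985, 0.596 and 0.607 CPM without (3.34, SE 0.28). DDR2, a collagen receptor kinase, had 231, 203 and 211 CPM with copper and 81.7, 82.7 and 79.0 CPM without (1.41, SE 0.09). Of the 16 genes that fell at least 2-fold 5 were in a list, and APLNR, the apelin receptor, was among the others with 1.34, 1.66 and 1.78 CPM with copper and 2.997, 3.88 and 3.96 CPM without (-1.18, SE 0.24).

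TEPA for 24 h against its untreated control is the nearest contrast in the study, a copper chelator in place of copper, and it shares no library with the copper comparison. The times differ, so the difference of the effects joins treatment and time. TEPA changed 155 genes (1.06%) and dextran-catechin 2 (0.0136%). The copper effect minus the TEPA effect was called in edgeR for 456 genes (3.11%), 241 of them higher and 215 lower. It was called for 743 genes without untreated 4 h library 1, 284 without TEPA library 3 and 1375 with the replicate block. Of the 111 genes that copper raised at least 2-fold TEPA raised 0 and lowered 5 in edgeR (5 higher and 16 lower at an unadjusted p under 0.05), and their median log2 fold change with TEPA was -0.01, against 0.02 over all genes tested. The difference was called higher for 82 of the 111. These genes were picked by the copper values that also enter the difference, so that count follows in part from how they were selected.

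SLC30A1 was 2.56 with copper and -1.50 (SE 0.17, adjusted p = 0.000207 in edgeR) with TEPA, a difference of 4.06 (SE 0.25, adjusted p = 6.11e-09 in edgeR). SLC7A11 was 3.59 with copper and -1.19 (SE 0.22) with TEPA, a difference of 4.78 (SE 0.32), and IFRD1, a transcriptional regulator, was 1.49 with copper and -1.23 (SE 0.18) with TEPA, a difference of 2.72 (SE 0.25). MT1F was 4.63 with copper, and had 1 count with TEPA and 14 in the 24 h control, a ratio of 0.0674 with a 95% counting interval of 0.00159 to 0.443. The other gene of the 5 is the noncoding LINC00473. The other metallothioneins were not called with TEPA, with MT1X at -1.98 (SE 1.07) and MT2A at -1.37 (SE 0.70), while their differences from copper were called at 7.69 (SE 1.196) and 6.64 (SE 0.85).

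The stress genes had TEPA values on both sides of 0. SLC7A11 was called lower with TEPA, whereas of the 31 tested ATF4 effectors TEPA raised 2 and lowered 0, with a median of 0.22. CDKN1A, given below, is among the 2. SESN2 was 3.87 with copper and 1.09 (SE 0.34, adjusted p = 0.174 in edgeR) with TEPA, DDIT3 was 2.99 and -0.84 (SE 0.29, adjusted p = 0.228) and ATF3 was 3.30 and -0.54 (SE 0.22, adjusted p = 0.356). ATF4 was 1.41 with copper and -0.32 (SE 0.11, adjusted p = 0.199 in edgeR) with TEPA, STC2 was 4.52 and 0.22 (SE 0.16) and HMOX1 was 4.28 and 0.31 (SE 0.39), with called differences of 1.74 (SE 0.15), 4.30 (SE 0.24) and 3.96 (SE 0.55). CHAC1 was 4.84 with copper and 0.83 (SE 0.85) with TEPA, and its difference of 4.01 (SE 1.11) was not called (adjusted p = 0.0575 in edgeR). HSPA8 fell by 1.74 with copper and was -0.33 (SE 0.16) with TEPA, a called difference of -1.41 (SE 0.23). INSIG1 was -1.07 with copper and -0.85 (SE 0.21, adjusted p = 0.0528) with TEPA, and the difference of -0.21 (SE 0.29) was not called. Of the 26 p53 targets copper raised 1, and TEPA raised 12, with a median of 0.85. CDKN1A was 0.69 with copper and 1.45 (SE 0.24, called) with TEPA, and the difference of -0.75 (SE 0.33) was not called (adjusted p = 0.343 in edgeR). Both treatments were called for 29 genes, 13 with opposite and 16 with the same sign.

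**Figure D5:**
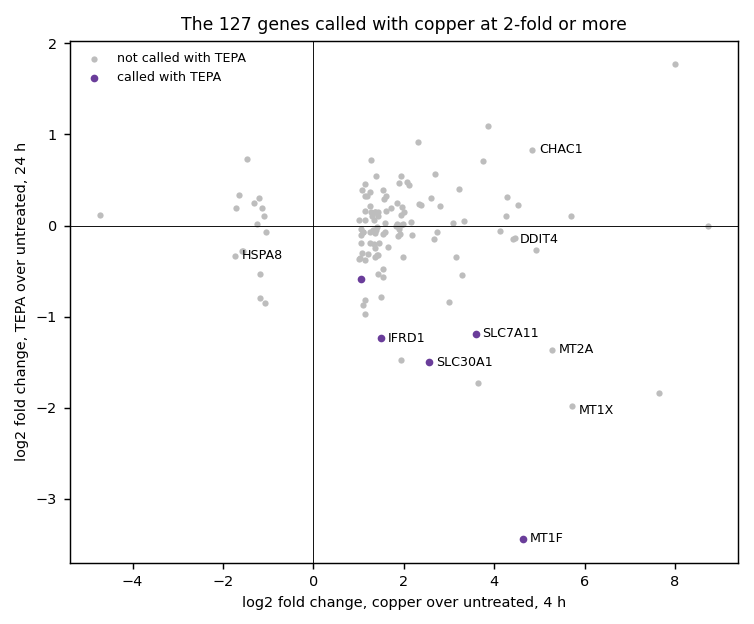
Log2 fold change with TEPA at 24 h (y axis) against that with copper at 4 h (x axis) for the 127 genes called with copper at 2-fold or more, 1 point each; purple marks genes also called with TEPA. Points lie on both sides of 0 on the TEPA axis, and MT1F, SLC30A1, SLC7A11 and IFRD1 lie below it; fitted values of genes at 0 to 3 counts in a group (MT1M, MT1E, HSPA6, ACSL5, and MT1F with TEPA) depend on the prior count.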

How the data were processed

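RNA of SH-SY5Y cells was extracted with a column kit and made into stranded mRNA libraries, per the labels' protocols. The authors deposited a table of whole-number read counts for 26485 gene symbols, and per the submitters' processing notes STAR 2.5a, RSEM 1.2.31 and hg38 were used; annotation, strand setting and any filter are not given in the sources used here. Of these genes 6378 were at 0 in all 24 libraries. The lowest chi-square per degree of freedom between replicate libraries was 3.70, so no library repeats another. Gene positions come from GENCODE on GRCh38, where 23924 symbols (90.3%) matched.

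The counts were fitted with edgeR 4.0.16 in R 4.3.3 (TMM scaling, quasi-likelihood test, 1 mean per group, 16 residual degrees of freedom) over 14654 genes kept by a minimum count of 10, with Benjamini-Hochberg adjustment over all of them. The pooled spread assumes that the 4 h libraries vary like the others. The chi-square per degree of freedom between libraries of a group was 12.2 to 108 with copper and 18.4 to 182 without at 4 h. At 24 h it was 3.70 to 77.2. The 4 h groups thus reached higher values, and fitted alone without a block they gave 55 calls. The SE of a fold change was derived from the F statistic of its test, and its 95% interval from that SE with 16 degrees of freedom. The interval and the p-value of the test therefore need not match exactly. Counting intervals and floors cover counting error only. The fit was tested on simulated data. Alternatives were 2 other scalings, 2 other filters, limma-voom (limma 3.58.1), DESeq2 1.42.0, the 6 libraries alone, a replicate block, removal of each library's GC trend (lowess span 0.3, 93.8% of genes with GC content) and leaving libraries out.

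The replicate numbers were taken to pair the libraries, because deviations from the group means correlated for the same number (0.866, 0.350 and 0.817), although copper library 2 correlated better with untreated library 3 (0.499). The GC difference of a library, its median log2 level of GC-rich minus GC-poor genes, was -0.645, 0.797 and 1.34 in copper libraries 1, 2 and 3 and -1.32, 0.653 and 1.38 in untreated libraries 1, 2 and 3.

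Genes were named by this rule: the 4 marker genes, the 20 largest rises and falls with a mean of at least 1 CPM and no overlap between the groups, up to 5 called members per list (the 2 most abundant where none was called), the 15 most abundant called genes, CD274, STAT3, IRF1, SLC31A1 and TFRC, and the 8 largest called differences between copper and TEPA; the text gives those that stand for their group. Chosen after their values were seen were CDKN1A, CEBPG, DDR2, EGR1, EIF2AK1, ERN1, FOS, GCLM, HERPUD1, HSPA1A, BAG3, IER2, IFRD1, JUN, KARS, MTF1, ATF4, ATF5, NFE2L2, NQO1, PCK2, PHGDH, PPP1R15A, PSPH, SHMT2, SLC7A1, SRXN1, TARS, TSC22D3, VLDLR, WARS, XPOT, LINC00473 and the genes that the other observations name so. The comparison and the 52 gene lists were chosen with earlier results of these data known, so no list is independent evidence.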

Additional observations from a re-analysis of the deposited data

How the results depend on the processing

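The 857 calls were 674 to 1130 under 2 other scalings, 2 other filters, limma-voom and DESeq2. With the 6 libraries alone and no replicate block 55 genes were called, 54 higher, 1 lower and 50 at least 2-fold. Calls rose to 2291 with the replicate block within time points (916 higher, 1375 lower), to 2506 with the block in the 6 libraries alone (1113 and 1393), and to 2988 with GC trends removed (1432 and 1556). GC trends removed together with the replicate block gave 3861 (1802 and 2059, 203 at least 2-fold), or 4607 in the 6 libraries alone (2151 and 2456, 199 at least 2-fold). Without 1 library, or without both of a number, there were 352 to 981 calls, 188 to 583 higher, 164 to 661 lower and 98 to 149 at least 2-fold. All 857 were among the calls with the block, and 51 of the 55 were among the 857. The copper effect minus the TEPA effect gave 1375 calls with the block, 2273 with GC trends removed, 3037 with both, 728 in DESeq2 and 284 to 743 without 1 library, an alternative chosen after seeing the data. It was not run on 6 libraries alone. The cause of these shifts was not tested. ERN1 aside, 118 genes were named, of which 106 were called. Of the 2219 values of these 106 under 21 alternatives 158 lost the call and 0 turned direction. The 6 libraries alone with no replicate block gave 64 of the 158. A call was lost without some 1 library for 15 of the 106. Signs turned for 2 genes that were not called. BAG3 was at -0.00472 with GC trends removed and -0.000567 with the block added, and ran from -0.17 without copper library 3 to 0.32 without untreated library 3 (-0.16 without untreated library 1). MTF1 ran from -0.00113 without copper library 1 to 0.14 without untreated library 1. Depth limits genes at few counts, such as the 7 metallothioneins not tested.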

Other observations

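A group of rises lay outside the stress lists and was named after its values were seen. TXNIP, an inhibitor of thioredoxin and of glucose uptake that is driven by glucose-sensing factors, had 248, 225 and 209.6 CPM with copper and 98.4, 93.5 and 85.0 CPM without, a log2 fold change of 1.30 with an SE of 0.12 (adjusted p = 6.68e-07 in edgeR). The groups did not overlap, and library 1 was highest in both. Its relative ARRDC4 had 58.2, 42.5 and 40.2 CPM with copper and 23.7, 16.4 and 14.8 CPM without (1.36, SE 0.18). KLF9, a transcription factor of hormone responses, rose by 1.18 (SE 0.15) and GADD45A, a growth arrest gene, by 1.28 (SE 0.20). With TEPA these 4 were not called, at 0.11, 0.14, 0.33 and 0.72.

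Further single genes of metabolism and translation were called. GLUL, glutamine synthetase, had 162, 173 and 174 CPM with copper and 242, 271 and 274 CPM without, and fell by 0.63 on the log2 scale (SE 0.07, adjusted p = 2.58e-06 in edgeR). OAT, ornithine aminotransferase, had 63.3, 54.1 and 49.7 CPM with copper and 105, 87.3 and 81.4 CPM without (-0.71, SE 0.11). EIF1, a factor of start codon selection, rose to 1111, 902 and 871 CPM with copper, against 628, 545 and 514 CPM without (0.77, SE 0.09). The groups of all 3 did not overlap. GLUL and OAT too were picked after their values were seen.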
